A study of Mus musculus with 8 samples.

Results

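The retinoblastoma (RB) pocket proteins and the E2F transcription factors they bind were followed in mouse pancreas after deletion of Lmna, the gene of lamin A/C. The 10 genes are the pocket proteins Rb1, Rbl1 (p107) and Rbl2 (p130), the activating factors E2f1, E2f2 and E2f3, and the repressing factors E2f4, E2f6, E2f7 and E2f8. They were taken by symbol from the deposited table, were 10 of 22180 genes tested, and none was left out for a low value. The data are RMA expression values on a log2 scale from 8 whole-transcript arrays of total pancreas RNA, 1 array per sample. Control samples (LmnaWT, here WT, 4 arrays) and Lmna knockout samples (LmnaKO, here KO, 4 arrays) were C57 BL6 mice collected 6 days after an intraperitoneal injection of tamoxifen at 3 mg per 40 g of body weight. Both groups received the drug, and each held 3 males and 1 female, the female being replicate 4. The series title places the deletion in acinar cells, the enzyme-secreting cells of the pancreas; the promoter that drives the recombinase and the age of the mice were not stated in the labels.

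Pocket proteins hold E2F factors on the promoters of cell cycle genes and keep those genes silent. Cyclin-dependent kinases phosphorylate the pocket proteins, E2F is released, and genes of DNA replication are transcribed. E2f1, E2f2 and E2f3 mainly activate, E2f4 works mostly with Rbl1 and Rbl2 in resting cells, E2f6 represses through a Polycomb complex without binding pocket proteins, and E2f7 and E2f8 are repressors that bind DNA without a DP partner. Lamin A/C and its partner LAP2alpha, a product of Tmpo, bind RB1 in the nucleus, and adult acinar cells are mostly out of the cycle. The comparison of KO with WT asks how the pocket proteins and the E2Fs are expressed when lamin A/C is deleted. Whole pancreas was measured, so a change in the share of a cell type and a change in RNA per cell cannot be told apart.

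Several members of the family are themselves known E2F targets, and the sequences that bear on this are shown first. Of the 10 genes, 8 have a promoter window in the RefSeq table (build GRCm38.p6), while Rb1 and E2f4 do not. Each window holds 300 bases, 250 before the annotated start and 50 from it on; E2f2 and E2f3 have 2 starts each, giving 10 windows. An E2F motif was searched as TTTCCCGC, TTTGGCGC, TTTCGCGC or TTTGCCGC on both strands, and a cell cycle homology motif (CHR), the letters bound by the MuvB complex, as TTTGAA or TTCGAA on both strands. In the member windows no match of one family overlapped a match of the other. In the lines below, capitals mark E2F or CHR letters, each line reads 5′ to 3′ on the strand of the gene, and all lines but that of E2f7 end at the base before the start.

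Rbl1, chr2:157204535-157204634, minus strand: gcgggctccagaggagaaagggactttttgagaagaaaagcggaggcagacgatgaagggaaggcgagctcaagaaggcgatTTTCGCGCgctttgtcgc
E2f3, upstream start, chr13:29986064-29986163, minus strand: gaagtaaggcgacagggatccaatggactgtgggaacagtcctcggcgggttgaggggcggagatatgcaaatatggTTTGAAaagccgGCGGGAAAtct
E2f8, chr7:48881597-48881696, minus strand: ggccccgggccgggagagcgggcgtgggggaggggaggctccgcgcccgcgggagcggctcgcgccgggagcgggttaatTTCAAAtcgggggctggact
E2f7, chr10:110745215-110745274, plus strand: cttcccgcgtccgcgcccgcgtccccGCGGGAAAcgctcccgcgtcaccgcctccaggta
Rbl2, chr8:91069957-91070056, plus strand: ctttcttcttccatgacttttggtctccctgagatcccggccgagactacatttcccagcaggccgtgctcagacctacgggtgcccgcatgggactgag

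These 5 stretches were chosen because they set the members that rose (Rbl1, E2f3 and E2f8) beside others that did not pass the test (E2f7 and Rbl2). In Rbl1 the E2F letters TTTCGCGC begin 18 bases before the start. In E2f3 the E2F letters lie on the opposite strand, beginning 11 bases before the upstream start, with a CHR motif beginning 23 bases before it. In E2f8 a CHR motif on the opposite strand begins 20 bases before the start and no E2F motif was found in the window. E2f7 has E2F letters beginning 198 bases before its start, and E2f2 has them 40 bases after its first start. E2f2 also has a CHR motif beginning 31 bases before its second start. Genes that did not pass the test thus carry both motifs as well. In Rbl2 the stretch shown holds neither motif, and a CHR motif begins 201 bases before the start, outside the stretch. No match of either kind was found in the windows of E2f1, E2f6 and the downstream start of E2f3. In all, 4 of the 10 member windows held an E2F motif, against 2.26% of 32851 windows in the table, and 4 of 10 held a CHR motif, against 19.2%. A match is a description of the letters and not a site of binding. Only these exact letters in these windows were searched, so a window without a match, as in E2f1, may still hold or lie near a site.

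Acinar markers were present, at a median level of 11.9 over 8 of them. Values of single arrays are given in the order of replicates 1 to 4, and WT 2 means WT replicate 2. Lmna itself stood at 2.54, 3.13, 2.67 and 2.88 in the WT arrays and at 2.33, 2.58, 2.73 and 2.61 in the KO arrays, a difference of -0.24 ± 0.15 (log2, KO minus WT, ± SE, limma adjusted p = 0.264). The groups overlapped, and the position of its probes in the deleted part is not known, so Lmna does not check the genotype labels. The interquartile range of KO arrays was 2.88 to 3.03 log2 units over the genes tested and that of WT arrays 2.11 to 2.48, WT 2 being the narrowest. Genes of middle level were more often higher in KO than dim genes, which is taken up with the members' levels.

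Over the whole comparison, 14.6% of 22180 genes were higher and 6.99% lower in KO (limma, Benjamini-Hochberg adjusted p under 0.05 over all genes). Of the 10 members, 5 were higher and 0 lower. These were the pocket proteins Rb1 and Rbl1, the activator E2f3 and the repressors E2f4 and E2f8. The median difference over the 10 was 0.64, while that of all genes was -0.06. All 4 KO arrays lay above all 4 WT arrays in 2 members, Rb1 and Rbl1, and in 15.3% of all genes; all KO arrays lay below in 0 members and in 12.1% of genes. Nothing in the labels ties arrays to litters or extractions, and the p-values speak for the spread of these arrays alone.

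**Figure D1:**
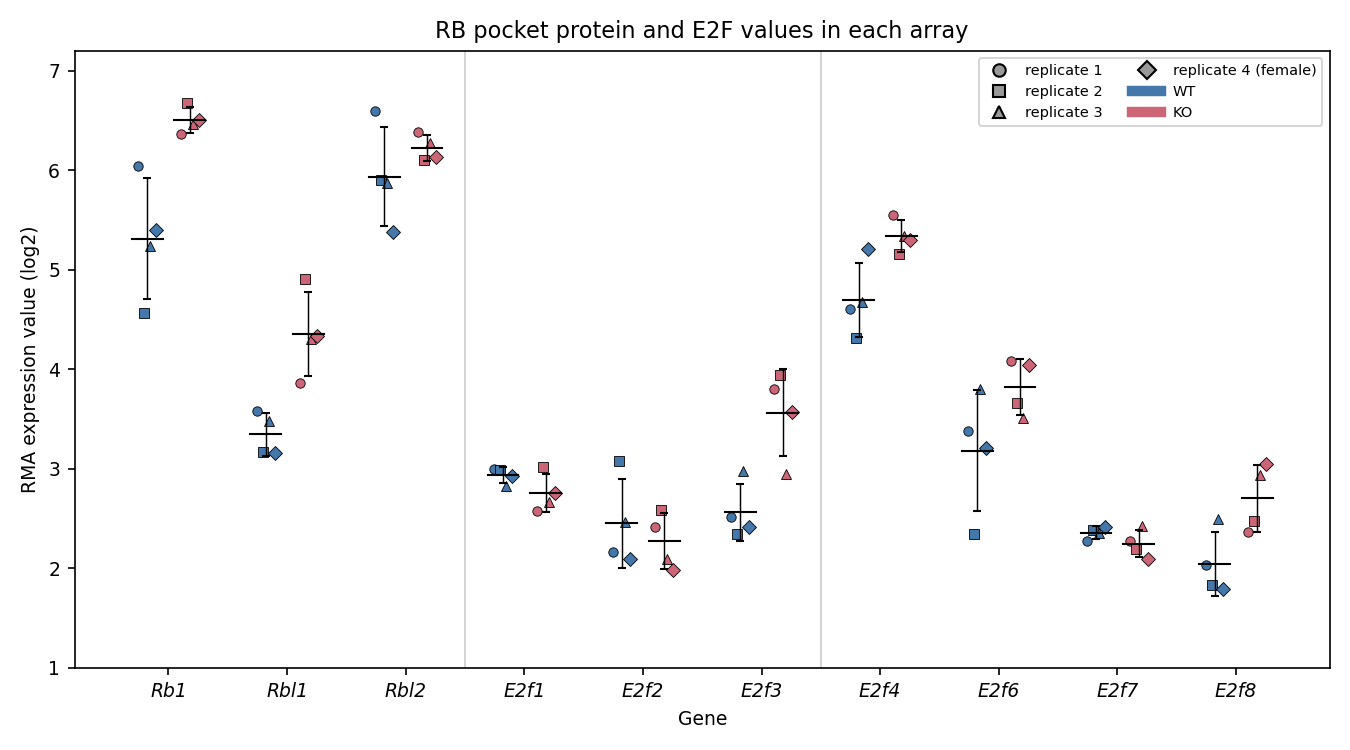
RMA expression value (log2, vertical axis) of the 10 genes in each WT (blue) and KO (red) array; marker shape gives the replicate number, horizontal bars the group mean and vertical bars the SD (n = 4). KO points of Rb1 and Rbl1 all lie above the WT points, while E2f1, E2f2 and E2f7 overlap; levels of different genes come from different probes and are not compared.

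Rb1, the founding pocket protein, stood at 6.04, 4.56, 5.24 and 5.40 in the WT arrays and at 6.36, 6.67, 6.46 and 6.51 in the KO arrays. The KO arrays lay close together (6.50 ± 0.13, SD, n = 4) and the WT arrays far apart (5.31 ± 0.61), with WT 1 near the KO values and WT 2 lowest. Rb1 rose by 1.19 ± 0.26, or 2.28-fold (limma adjusted p = 0.0138). The value comes from the brighter of 2 array rows annotated to Rb1 alone. The other row was dim, at 0.95 ± 0.13 in WT and 1.25 ± 0.24 in KO, and did not pass (0.30 ± 0.15, limma adjusted p = 0.18 over all rows). Another 2 rows are annotated to both Rb1 and Lpar6, a receptor gene that lies inside Rb1 in RefSeq, so their signal cannot be assigned to either. They read 4.32 ± 0.47 and 2.78 ± 0.40 in WT and 4.81 ± 0.32 and 3.20 ± 0.31 in KO, and neither passed (limma adjusted p = 0.208 and 0.222 over all rows). With the mean of its own 2 rows, Rb1 differed by 0.75 (limma adjusted p = 0.01).

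Rbl1 encodes p107, a pocket protein that accumulates in cycling cells. It stood at 3.58, 3.17, 3.48 and 3.16 in the WT arrays and at 3.86, 4.90, 4.31 and 4.34 in the KO arrays. Every KO array was above every WT array, KO 2 being the highest and KO 1 the nearest to WT. Rbl1 rose by 1.01 ± 0.21, or 2.01-fold (3.35 ± 0.22 to 4.35 ± 0.43, SD, n = 4, limma adjusted p = 0.0114). Rbl2 encodes p130, the pocket protein most associated with the resting state. It stood at 6.59, 5.90, 5.88 and 5.38 in the WT arrays and at 6.39, 6.10, 6.27 and 6.13 in the KO arrays, so the KO arrays fell inside the WT range. The difference was 0.29 ± 0.22 (limma adjusted p = 0.353), with a 95% confidence interval of -0.21 to 0.79. Without WT 1, the highest array, Rbl2 passed the threshold (0.51, limma adjusted p = 0.0462).

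Among the activators, E2f3 was the member that rose. It stood at 2.52, 2.35, 2.98 and 2.41 in the WT arrays and at 3.80, 3.94, 2.95 and 3.57 in the KO arrays. The groups overlapped by 1 array, KO 3 lying just under WT 3, and the other 3 KO arrays were above all WT arrays. E2f3 rose by 0.998 ± 0.226, or 2.00-fold (2.56 ± 0.29 to 3.56 ± 0.44, SD, n = 4, limma adjusted p = 0.0153). A single row covers the gene, so transcripts from its 2 starts were not separated. E2f1 stood at 3.00, 2.99, 2.83 and 2.92 in the WT arrays and at 2.58, 3.02, 2.67 and 2.76 in the KO arrays. KO 2 exceeded every WT array and the other KO arrays were below every WT array, giving -0.18 ± 0.13 (limma adjusted p = 0.306, 95% interval -0.46 to 0.10). E2f2 ran from 2.09 to 3.08 in WT and from 1.98 to 2.59 in KO, a difference of -0.18 ± 0.23 (limma adjusted p = 0.573, 95% interval -0.69 to 0.33). For E2f1 that interval leaves out a rise of the array value as large as that of E2f3, and for E2f2 it does as well. Both rows are dim with signal over background unknown, so this does not extend to the transcripts.

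E2f4, the main E2F of resting cells, stood at 4.60, 4.31, 4.68 and 5.20 in the WT arrays and at 5.55, 5.16, 5.33 and 5.30 in the KO arrays. The female WT 4 lay above KO 2, and the other WT arrays lay below all KO arrays. E2f4 rose by 0.64 ± 0.19, or 1.55-fold (4.70 ± 0.37 to 5.34 ± 0.16, SD, n = 4, limma adjusted p = 0.0369). The call rested on the full set of arrays: it held without WT 4 (0.81, limma adjusted p = 0.0141) and was lost without WT 1 (0.60), WT 2 (0.51), WT 3 (0.63), KO 1 (0.57), KO 2 (0.70), KO 3 (0.64) or KO 4 (0.65), with limma adjusted p from 0.0525 to 0.0838.

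E2f8, an atypical repressor that is itself expressed in S phase, stood at 2.03, 1.84, 2.50 and 1.80 in the WT arrays and at 2.36, 2.48, 2.93 and 3.04 in the KO arrays. WT 3 lay above KO 1 and KO 2, and the other WT arrays lay below all KO arrays. E2f8 rose by 0.66 ± 0.21, or 1.58-fold (limma adjusted p = 0.0454). The call held without WT 3 (0.82) and without KO 1 (0.78) and was lost without WT 1 (0.66), WT 2 (0.60), WT 4 (0.58), KO 2 (0.74), KO 3 (0.59) or KO 4 (0.55), with limma adjusted p up to 0.124. Its close relative E2f7 showed little spread, from 2.27 to 2.42 in WT and from 2.10 to 2.42 in KO, and differed by -0.11 ± 0.11 (limma adjusted p = 0.48, 95% interval -0.36 to 0.14).

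E2f6, the repressor that works without pocket proteins, stood at 3.38, 2.35, 3.80 and 3.20 in the WT arrays and at 4.08, 3.66, 3.51 and 4.04 in the KO arrays. WT 2 stood lowest, and WT 3 lay among the KO arrays. The difference of 0.64 ± 0.28 was as large as that of E2f4 but the WT arrays were more spread (SD 0.61), and it did not pass (limma adjusted p = 0.12). The lowest WT value was that of WT 2 in Rb1, E2f3, E2f4 and E2f6. The highest was that of WT 1 in Rb1, Rbl1, Rbl2 and, by a small margin, E2f1. WT 2 was also the array of narrowest spread, and the part of that spread in these differences was not tested.

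**Figure D2:**
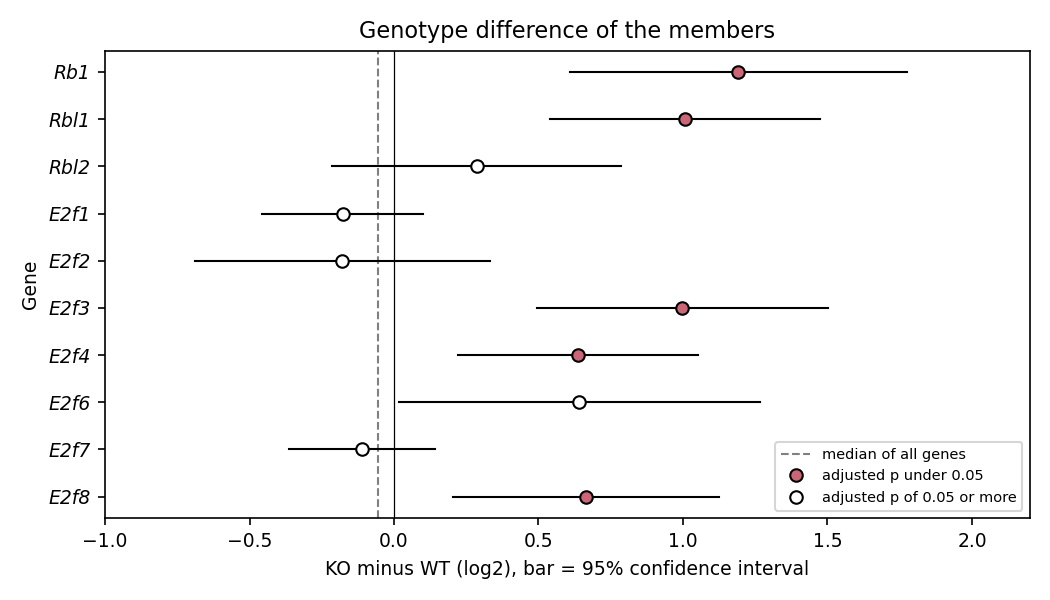
KO minus WT difference (log2, horizontal axis) of each gene with its 95% confidence interval; filled points passed a limma adjusted p of 0.05 over all genes and the dashed line is the median of all genes. Rb1, Rbl1 and E2f3 lie near 1 and the intervals of E2f1, E2f2, E2f7 and Rbl2 cross 0.

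Whether members changed unequally was asked within each array, where a shift common to the array cancels. For 6 pairs, the difference of both log2 values was compared between the genotypes by an exact two-sided permutation test, whose smallest p with 4 against 4 arrays is 0.0286. Rb1 minus Rbl2 was higher in KO by 0.91 (-0.62 ± 0.56 in WT, 0.28 ± 0.26 in KO, exact p = 0.0571, 0.114 adjusted over the 6 pairs). Rbl1 minus Rbl2 was higher by 0.72 (exact p = 0.0857, adjusted 0.129), while Rb1 minus Rbl1 differed by 0.19 (exact p = 0.6). E2f1 minus E2f4 differed by -0.81 (exact p = 0.0571, adjusted 0.114) and E2f2 minus E2f4 by -0.82 (exact p = 0.0571, adjusted 0.114). E2f3 minus E2f4 differed by 0.36 (exact p = 0.371). No pair passed, and in every pair the arrays of the genotypes overlapped. After adjustment over the 6 pairs, a single pair at the smallest p of 0.0286 could not have passed. Most of the pairs would have had to separate fully for any to pass. With this number of arrays the adjusted test therefore cannot decide whether members changed unequally.

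The scaling of the arrays moved some members more than others. With quantile normalization applied once more Rb1 differed by 0.81, and with cyclic loess by 0.79, while Rbl1 differed by 0.77 and 0.76, E2f3 by 0.93 and 0.96 and E2f8 by 0.74 and 0.82, and all 4 kept their call under both (limma adjusted p at most 0.0484). E2f4 differed by 0.22 and 0.25 and lost its call (limma adjusted p = 0.452 and 0.393), leaving 4 members higher. Rbl2 turned to -0.13 and -0.12, and E2f7 to 0.01 and 0.06, without passing. Median centring put the all-gene median at 0.08 instead of -0.06, and the same 5 members were higher. Rb1, Rbl1 and E2f3 stayed past the threshold in each of the 8 fits that left out 1 array, while the count of higher members was 3 without WT 2, KO 2, KO 3 or KO 4 and 4 without any other array. Among males, with 3 arrays per genotype, E2f4 alone passed (0.82, limma adjusted p = 0.0473), while Rb1 (1.22), Rbl1 (0.95), E2f3 (0.95) and E2f8 (0.47) did not.

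**Figure D3:**
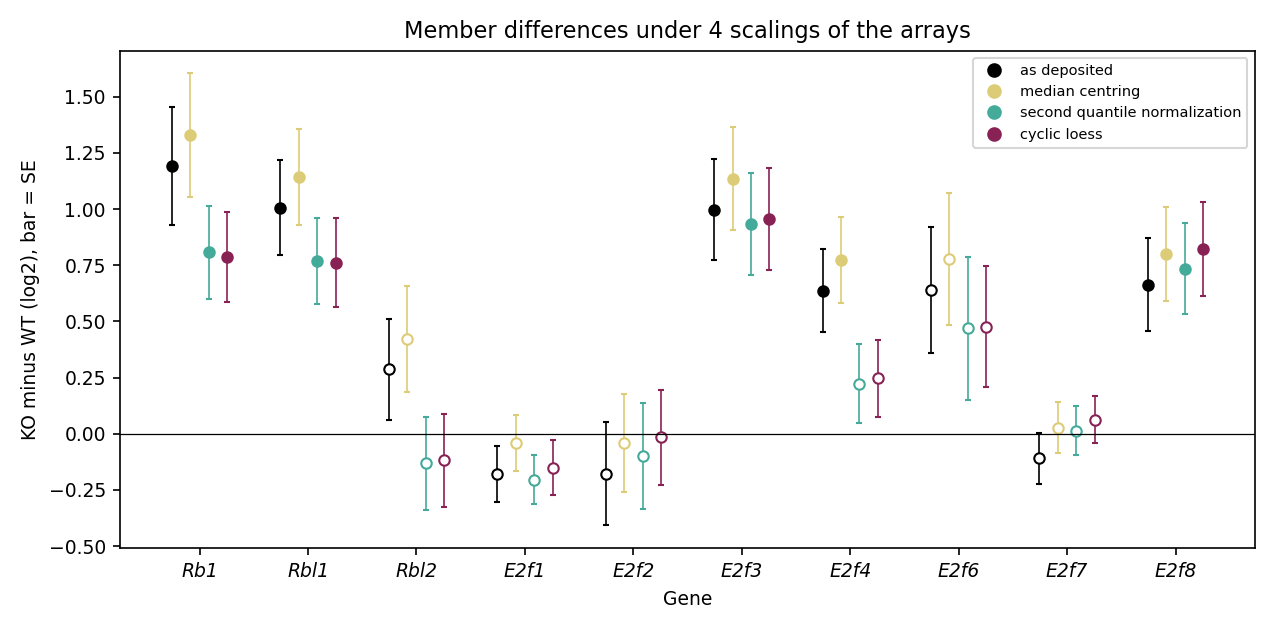
KO minus WT difference (log2, vertical axis, bars are SE) of each gene with the table as deposited and after 3 further scalings; filled points passed a limma adjusted p of 0.05. Median centring lies above the deposited value in every gene; under the other 2 scalings Rb1 and Rbl1 are smaller but filled, E2f4 is 0.22 and 0.25 and open, and Rbl2 is below 0.

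Members also differed in where they lay on the scale of the array. Among all genes with a mean level of 5 to 6, where Rb1 and E2f4 lie, 39.7% were higher in KO, and both members were. At 3 to 4, where Rbl1, E2f3 and E2f6 lie, 22.9% were higher, and 2 of the 3 members were. At 2 to 3, where E2f1, E2f2, E2f7 and E2f8 lie, 5.07% were higher and 12.2% lower, and E2f8 was the 1 member higher. Rbl2 lay at 6 to 8, where 33.1% were higher. Mean levels of E2f2, E2f7 and E2f8 fell at percentiles 45.2 to 46.8 of all genes and E2f1 at 55.4. Signal over background is not known for these rows, so how well these rows measure a dim transcript cannot be given. Of the 10 members, 4 had a mean of at least 4 in either group.

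**Figure D4:**
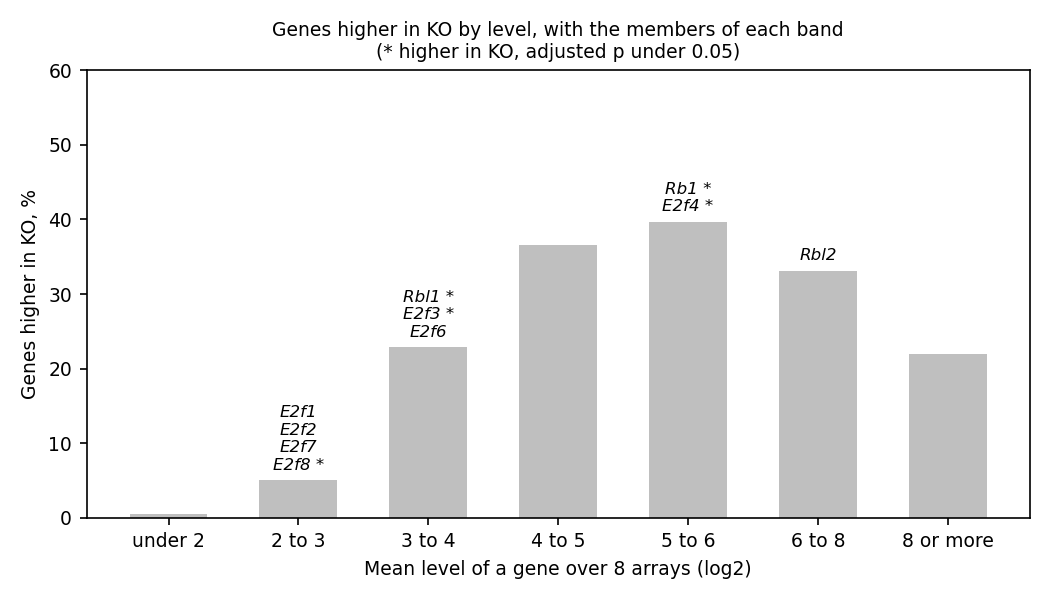
Share of all tested genes higher in KO (vertical axis, %, limma adjusted p under 0.05) by the mean level of the gene over 8 arrays (horizontal axis, log2), with the members of each band written above its bar and an asterisk on those higher in KO. The share peaks at 39.7% for levels of 5 to 6, the band of Rb1 and E2f4, and is 5.07% in the band of E2f8.

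The genotype difference was set against sex, with 1 female per genotype; the fit takes its spread from the males and assumes that the females vary like them. The gap of smallest p was that of E2f4, at 0.82 in males and 0.09 in the females (female minus male -0.73 ± 0.35, limma adjusted p = 0.9999, unadjusted p = 0.0708). E2f8 differed by 0.47 in males and 1.25 in the females (unadjusted p = 0.131 in the same limma fit). None of the 10 members passed, and over all genes 1 passed and 385 had an unadjusted p under 0.05.

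The genes whose profile over the 8 arrays was most like each pocket protein were found by the root mean square difference after each gene's mean was subtracted, so their genotype difference is set by the choice and was not tested. Nearest to Rb1 were Appbp2 (0.132) and the cohesin subunit Smc3 (0.133). Rbl1 was closest to Vcl, the adhesion protein vinculin (0.0857), and to the receptor Neo1 (0.117), and Rbl2 to Calcoco1 (0.0832) and the intraflagellar transport gene Ift46 (0.101). KO minus WT was 0.89 to 1.07 in the 4 neighbours of Rb1 and Rbl1 and 0.25 and 0.22 in those of Rbl2.

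The genes around the family were described by lists, as counts and medians. Of 115 measured genes of 11 pathway lists, 43 were higher (37.4%, against 14.6% of all genes) and 0 lower. The share depended on level: 1 of 7 were higher at levels under 2 (0.486% of all genes) and 4 of 31 at 2 to 3 (5.07%). It was 18 of 34 at 3 to 4 (22.9%) and 9 of 18 at 4 to 5 (36.6%). At 5 to 6 it was 5 of 16 (39.7%), below the share of all genes, and at 6 to 8 it was 6 of 9 (33.1%). With quantile normalization applied once more 17 were higher and 2 lower, and with cyclic loess 19 and 2; these are the 2 further normalizations meant below. E2F factors other than E2f7 and E2f8 bind DNA with a DP partner. Tfdp1 read 5.82 ± 0.32 in WT and 6.32 ± 0.18 in KO (0.50 ± 0.17, limma adjusted p = 0.0635) and differed by 0.09 after each further normalization (limma adjusted p = 0.804 and 0.813). It passed with median centring (0.64, limma adjusted p = 0.0212) and with the replicate number as a block (limma adjusted p = 0.0436). In the fits without 1 array it passed in 0 of 8. Tfdp2 differed by -0.06 ± 0.25, and by -0.47 after each further normalization, without passing. MuvB joins E2f4 and Rbl1 or Rbl2 in the DREAM repressor complex, and then Mybl2 or Foxm1 in cycling cells. Of 7 such genes, 2 were higher (median 0.14): Lin54, the DNA-binding subunit that reads the CHR, rose by 0.96 ± 0.28 (limma adjusted p = 0.0361) and Rbbp4 by 0.50 ± 0.14 (limma adjusted p = 0.0308). Neither passed after either further normalization. The list count was 0 without WT 2, WT 3, WT 4, KO 1, KO 3 or KO 4, 1 without KO 2 and 3 without WT 1. The other MuvB genes Lin9 (0.55 ± 0.18), Lin52 (0.14 ± 0.16) and Lin37 (-0.21 ± 0.22) did not pass (limma adjusted p = 0.0572 to 0.524), and Lin52 turned to -0.25 and -0.21 after the further normalizations. Mybl2 (-0.18 ± 0.13) and Foxm1 (0.05 ± 0.14) did not pass (limma adjusted p = 0.321 and 0.812).

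Of 10 partners of E2f6 in the Polycomb complex PRC1.6, 6 were higher (median 0.64), and 1 after either further normalization. The number higher was 3 without WT 2, KO 1 or KO 3 and 2 without KO 4. The ubiquitin ligase Rnf2 rose by 1.28 ± 0.26, the heterochromatin protein Cbx3 by 0.63 ± 0.14 and the ring finger protein Pcgf6 by 0.58 ± 0.14 (limma adjusted p = 0.0102 to 0.0176); after the further normalizations Rnf2 alone of these passed. Of 5 measured germline genes that E2f6 is known to silence, 0 passed in either direction (median -0.15), at a median level of 1.30. Among 12 measured corepressors and chromatin factors that bind RB, 4 were higher (median 0.39, and 0.00 or -0.01 after the further normalizations, with 1 higher). The median level of this list was 5.63, and 39.7% of all genes at levels of 5 to 6 were higher. The list count was 1 without WT 2, KO 1 or KO 4, 2 without WT 4 or KO 2 and 6 without WT 1. The histone demethylase Kdm5a, found as an RB-binding protein, rose by 1.30 ± 0.25 (limma adjusted p = 0.00794) and the deacetylase Hdac3 by 0.70 ± 0.20 (limma adjusted p = 0.0319), besides Rbbp4; after the further normalizations Hdac3 differed by 0.29 and 0.30 and did not pass.

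Upstream of the pocket proteins, 5 of 7 measured G1 cyclins and kinases were higher (median 0.57, 3 higher with the replicate block, 1 after either further normalization, 3 without WT 2, WT 3, WT 4 or KO 2 and 1 without KO 4). Cyclin D2 (Ccnd2) rose by 0.91 ± 0.19, Cdk4 by 0.57 ± 0.13 and Cdk2 by 0.67 ± 0.16 (limma adjusted p = 0.0123 to 0.0184). After the further normalizations Ccnd2 was the gene that still passed, while Cdk4 (0.19 and 0.17) and Cdk2 (0.40 and 0.43) did not. Of 6 inhibitors of these kinases, 2 were higher. Cdkn1a (p21) rose from 4.52 ± 0.47 to 7.91 ± 0.39 (3.39 ± 0.26, limma adjusted p = 0.000437) and Cdkn1b (p27) by 0.72 ± 0.22 (limma adjusted p = 0.0412). After the further normalizations Cdkn1a still passed, and Cdkn1b differed by 0.38 and 0.37 and did not (limma adjusted p = 0.276 and 0.204); it passed in 3 of the 8 fits without 1 array.

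Downstream, 12 of 29 measured G1/S targets of E2F were higher and 0 lower (median 0.53). The sliding clamp Pcna rose by 1.28 ± 0.15, the primase subunit Prim1 by 1.30 ± 0.22 and the helicase subunit Mcm4 by 1.20 ± 0.26 (limma adjusted p = 0.00189 to 0.0133). The count was 6 higher and 1 lower after either further normalization, with medians of 0.35 and 0.38. It was 7 without KO 2 or KO 3, 5 without KO 4 and 10 to 13 without any other array. An E2F motif stood in 14 of the 34 promoter windows of these genes (41.2%, against 2.26% of all). Of 24 measured G2/M targets of DREAM, 7 were higher and 0 lower (median 0.43, 4 and 5 higher after the further normalizations). The number higher was 3 without WT 2, WT 4, KO 2 or KO 3, 4 without WT 3 and 1 without KO 4. Among the 7 were the topoisomerase Top2a (1.02 ± 0.22), and the mitotic motors Kif20a (0.77 ± 0.19) and Cenpe (0.75 ± 0.19), with limma adjusted p = 0.0124 to 0.024. A CHR motif stood in 18 of 23 windows of that list (78.3%, against 19.2%).

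**Figure D5:**
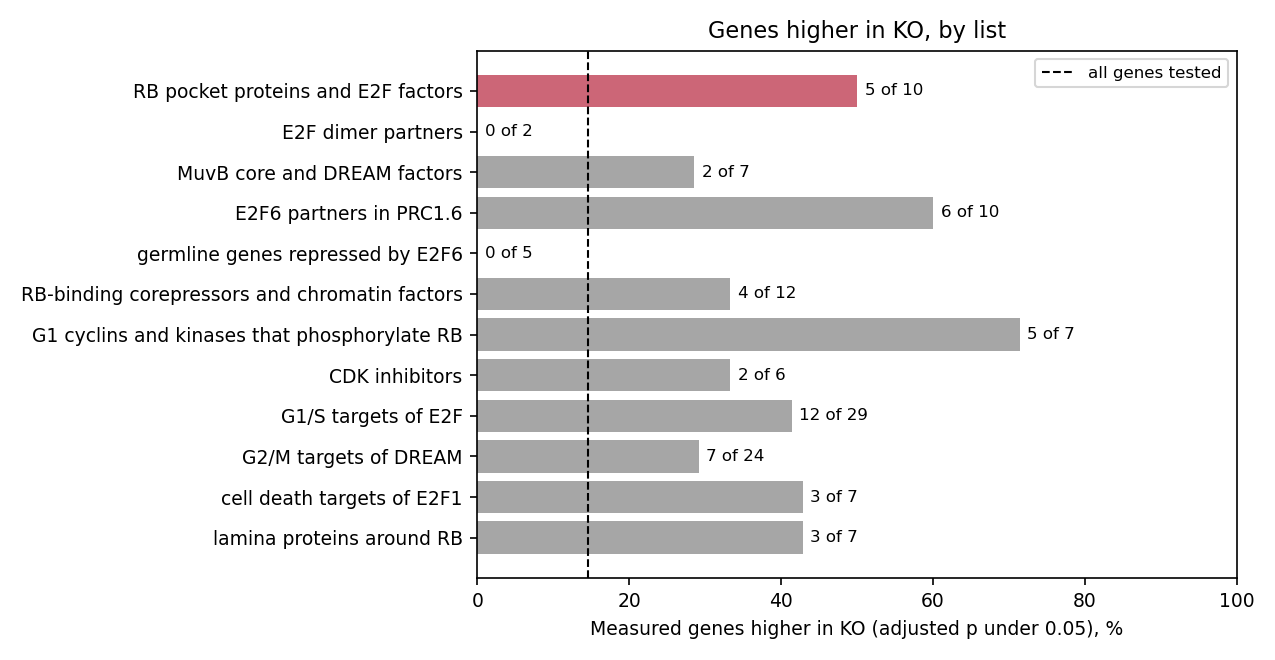
Share of measured genes higher in KO (horizontal axis, %, limma adjusted p under 0.05) in the 10 members (red) and 11 lists around them (grey), with counts; the dashed line is the 14.6% of all genes. Shares run from 0 of 2 DP partners and 0 of 5 germline genes to 5 of 7 G1 cyclins and kinases. The line is not matched to level. Of all genes at levels of 4 to 5, 36.6% were higher. The median levels of the MuvB, PRC1.6, G1 cyclin and lamina lists lie there.

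Of 7 measured cell death genes known as E2F1 targets, 3 were higher although the list median was -0.28. The apoptosome scaffold Apaf1 rose by 1.48 ± 0.21, Casp8 by 1.55 ± 0.31 and Bcl2l11 (BIM) by 0.66 ± 0.20 (limma adjusted p = 0.00283 to 0.0429). Bcl2l11 passed in 1 of the 8 fits without 1 array and in neither further normalization (limma adjusted p = 0.0522 and 0.0647), where Casp9 was lower (-0.71 and -0.65, limma adjusted p = 0.0402 and 0.0361). Of 7 lamina proteins, 3 were higher: the inner membrane protein emerin (Emd) by 0.85 ± 0.13, lamin B1 (Lmnb1) by 0.88 ± 0.19 and Tmpo, whose product LAP2alpha carries RB1 with lamin A/C, by 0.64 ± 0.19 (limma adjusted p = 0.00415 to 0.0389). The list median of 0.32 turned to -0.12 and -0.09 after the further normalizations, where Tmpo lost its call (0.24 in both) and Emd lost it after the quantile step (0.44, limma adjusted p = 0.0779). Tmpo also lost it with the replicate block (limma adjusted p = 0.0516). The median level of the lamina list was 4.67, and 36.6% of all genes at levels of 4 to 5 were higher.

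Markers of other cell types moved with genotype as well, and their part in the differences above was not tested. Of 10 macrophage markers, 5 were higher (all 10 with the replicate block, 3 after either further normalization, 9 without KO 1, 3 without KO 3 or KO 4; median 1.42), among them the receptors Fcgr1 (1.92 ± 0.27) and Adgre1 (2.29 ± 0.38) and the complement subunit C1qc (1.23 ± 0.26), with limma adjusted p = 0.00276 to 0.0123. The mean of the 10, each taken from its own mean over the arrays, ran from -1.59 to -0.02 in WT and from -0.18 to 1.21 in KO. By array it was -1.59, -0.02, -0.92 and -0.57 in WT and -0.18, 1.19, 0.88 and 1.21 in KO, so WT 2 lay above KO 1. Of 8 fibroblast and stellate markers, 1 was higher, Lum (1.14 ± 0.24, limma adjusted p = 0.011), 5 with the replicate block, 4 without KO 1 and 0 after either further normalization, where Lum differed by 0.73 and 0.76. No marker of neutrophils (6), B cells (3), endothelium (5) or islets (5) passed in the table as deposited (1 endothelial marker was lower after either further normalization), and of 7 T and NK cell markers Nkg7 fell by 0.57 (limma adjusted p = 0.025). The mean of the neutrophil markers, taken in the same way, was uneven within KO, at -0.63, 1.24, -0.81 and 1.41. In WT it was -0.51, 0.09, -0.51 and -0.28. That of the B cell markers was -1.03, 1.88, -0.75 and 0.17 in KO and -0.71, -0.25, -0.43 and 1.11 in WT. Among 5 ductal markers Krt19 rose by 1.13 ± 0.15 and Muc1 fell by 1.10 (limma adjusted p = 0.00239 and 0.00456). After the further normalizations Sox9 was lower too (-0.89 and -0.87, limma adjusted p = 0.00946 and 0.00812). Of 8 acinar markers, the transcription factor Bhlha15 fell by 1.42 and Rbpjl fell by 1.601 (limma adjusted p = 0.000570 and 0.00126). The other 6 differed by -0.22 to 0.03 and did not pass, and the list median was -0.17. The mean of the 8, to which Bhlha15 and Rbpjl contribute most, ran from 0.13 to 0.29 in WT and from -0.33 to -0.15 in KO.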

How the data were processed

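Per the submitters' processing notes, the authors used RMA, oligo and limma, with no versions given. The deposited log2 values form a table of 41345 rows by 8 arrays; log base 2 is read from their range, and no background level or scan batch was at hand. Array medians over all rows were 2.13 to 2.33. Of the rows, 23521 had 1 gene symbol in the platform annotation, 1814 several and 16010 none; only the first kind was tested. Where a gene had several rows (1082 genes), its brightest row on average was used. All 10 members matched RefSeq (GRCm38.p6) by Entrez identifier. Columns were matched by sample accession. Genotype was tested across all genes with limma 3.58.1 (lmFit, eBayes) in R 4.3.3, genotype being the only term, with Benjamini-Hochberg adjustment and a threshold of 0.05. Confidence intervals (95%) come from the same fit and are not adjusted. Steps were tested on simulated data.

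Named list genes are the 3 of smallest p per list among those past the threshold, and every gene of the DP and MuvB lists. For each pocket protein the 2 nearest profiles are named, leaving out predicted genes and small RNAs. Casp9 and Sox9 were named after their values were seen. Of 186 listed genes, 14 had no row with 1 symbol. The members and lists were chosen with earlier results of these data known.

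Replicate numbers 1 to 4 occur in both groups. Number 4 is the female in both, so sex and number cannot be told apart there. After subtracting group means, same-numbered arrays correlated across genes at 0.26, 0.17, 0.11 and 0.14. WT 4 with KO 2 (0.125) correlated more than the lowest of these, WT 3 with KO 3 (0.1095), and WT 3 with KO 1 (0.106) nearly as much. The numbers were taken as pairs from the data alone, so a fit with them as a block is not an independent check. With the replicate block 5 members were higher, as without it.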

Additional observations from a re-analysis of the deposited data

How the results depend on the processing

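The main count of higher members was 5. It was 1 among males only, and 3 when only genes with a mean of at least 4 were tested, which left 4 members, or when all rows of the table were tested, an alternative chosen after seeing the data (E2f4 adjusted p = 0.058 and E2f8 0.0697, limma). Without 1 array it ran from 3 to 4, and 0 members were lower in any fit. The other settings (sex as a term, the replicate block, the second quantile normalization, median centring, cyclic loess, trend with robust eBayes, array weights, the mean or the lowest of a gene's rows) gave 4 or 5. With the lowest row Rb1 did not pass (0.30), and with sex as a term E2f8 did not (limma adjusted p = 0.0636). Over all genes, 3241 were higher and 1551 lower. The counts were 770 and 145 among males only. Higher genes were 1228 after the second quantile normalization and 1521 after cyclic loess. Lower genes were 615 after median centring, 333 at a mean of at least 4 and 973 over all rows. Without 1 array, higher genes ran from 1781 to 3713 and lower genes from 459 to 2357. The share of calls that were higher went from 67.6% to 87.7% with median centring, 51.8% with the second quantile normalization and 56.4% with cyclic loess. Rb1 minus Rbl1 turned to -0.26 with the mean of rows and ran from -0.0043 to 0.35 without 1 array. With same-numbered arrays as pairs, no pair difference could pass, the smallest exact sign permutation p being 0.125. The cause of these changes was not tested. Of the 33 list genes named for passing the threshold, all kept their sign under the 4 scalings, and 21 and 22 passed after the second quantile normalization and cyclic loess. Among the DP and MuvB genes that did not pass, Tfdp2 turned to 0.07 with median centring and Lin52 to -0.25 and -0.21 after the second quantile normalization and cyclic loess. The number of arrays limits precision, and signal over background is unknown.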
